A study of Mus musculus with 16 samples.

Results

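The homeobox genes of the 4 mouse Hox clusters were followed in adipose tissue with and without the glucocorticoid receptor. They were taken as every array probe whose transcript accession maps to a gene of the Hoxa, Hoxb, Hoxc or Hoxd cluster, by symbol followed by a paralogue number. Of 38 listed genes, 35 were matched to a probe, and Hoxc4, Hoxc6 and Hoxc11 were not analysed here. Of those 35, 32 passed the filter on dim probes, among 25107 genes and unnamed features tested. A probe passed if the scanner software marked it as well above background in 3 or 4 of the arrays in any group. Hoxb1, Hoxc13 and Hoxd11 did not pass. Of the 32, 28 passed in both depots, 3 in WAT alone (Hoxa10, Hoxc12 and Hoxd12) and 1 in BAT alone (Hoxd13). A gene that passed in 1 depot alone passed because it was bright there, so counts over the 32 are descriptions of measured genes.

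The series holds 16 single-colour Agilent expression arrays of female mice, in 4 groups of 4. AdipoKO_BAT and AdipoKO_WAT are brown and white adipose tissue from mice in which the receptor (GR, encoded by Nr3c1) was knocked out in adipose tissue only. CTL_BAT and CTL_WAT are the same tissues from control mice, which the study design calls wild type. The labels used here give neither the Cre driver or promoter, nor the strain, the age, or which white or brown depot was dissected, and the design text states that the 4 samples of a group are biological replicates. Whether a knockout animal gave both tissues is not given in the labels. Each of the 4 slides carried 1 array of each group, at the same position on every slide, so array position and group cannot be told apart, while slides can.

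Hox genes encode homeodomain transcription factors that give cells their position along the head to tail axis. Genes of low paralogue number sit at one end of each cluster and act in anterior regions, and genes of high number act in posterior regions, an arrangement called collinearity. Mesenchymal cells, adipocyte progenitors included, keep a Hox pattern into adult life, and fat depots of different body regions are known to differ in it.

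The clusters lie on chromosomes 6 (Hoxa), 11 (Hoxb), 15 (Hoxc) and 2 (Hoxd). Of the genes measured, 10 belonged to the Hoxa cluster, 9 to Hoxb, 5 to Hoxc and 8 to Hoxd. Grouped by paralogue number, 6 of 7 anterior genes (paralogues 1 to 3), 13 of 13 central genes (4 to 8) and 13 of 15 posterior genes (9 to 13) passed the filter. Levels below are log2 signal relative to the 75th percentile of all probes on the same array, so that a level of 0 equals that percentile. They are compared between samples for 1 probe at a time and never between genes.

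Start site windows of 4 genes are shown because they represent both directions of the depot pattern reported below: Hoxa2 and Hoxa5 were higher in BAT, and Hoxd9 and Hoxb8 were lower in BAT of control mice. Each line holds the 250 bases before the annotated transcription start, from RefSeq on build GRCm38.p6, 5′ to 3′ on the strand of the gene. Capitals mark matches, on either strand, to CCAAT (the CCAAT box), TGATNNAT (a core bound by Hox and Pbx proteins) and TTTATG (a core bound by Cdx proteins). The windows are chr6:52164832-52165081 (minus strand), chr6:52204588-52204837 (minus strand), chr2:74697513-74697762 (plus strand) and chr11:96281655-96281904 (plus strand).
Hoxa2: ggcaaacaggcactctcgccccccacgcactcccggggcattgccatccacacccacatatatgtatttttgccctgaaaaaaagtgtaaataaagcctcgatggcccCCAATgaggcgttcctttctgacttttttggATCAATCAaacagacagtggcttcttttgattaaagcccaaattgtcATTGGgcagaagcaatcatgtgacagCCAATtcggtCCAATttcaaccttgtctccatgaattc
Hoxa5: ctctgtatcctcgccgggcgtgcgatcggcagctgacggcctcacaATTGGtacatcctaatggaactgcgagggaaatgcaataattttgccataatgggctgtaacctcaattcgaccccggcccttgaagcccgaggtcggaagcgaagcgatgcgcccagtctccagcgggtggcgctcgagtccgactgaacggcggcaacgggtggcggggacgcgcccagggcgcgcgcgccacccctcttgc
Hoxd9: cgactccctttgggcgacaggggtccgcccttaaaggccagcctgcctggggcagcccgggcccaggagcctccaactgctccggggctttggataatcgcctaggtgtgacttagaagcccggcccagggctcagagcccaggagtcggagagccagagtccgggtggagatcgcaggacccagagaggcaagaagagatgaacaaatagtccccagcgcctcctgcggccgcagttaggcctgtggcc
Hoxb8: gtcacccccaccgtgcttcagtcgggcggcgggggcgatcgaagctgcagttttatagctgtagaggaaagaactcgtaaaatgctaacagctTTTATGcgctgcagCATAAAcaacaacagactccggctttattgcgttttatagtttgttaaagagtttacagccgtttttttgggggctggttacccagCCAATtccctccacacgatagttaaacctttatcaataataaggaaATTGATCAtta
In these windows GC content was 46.4% for Hoxa2, 63.6% for Hoxa5, 65.2% for Hoxd9 and 44.4% for Hoxb8, against a median of 52.4% over the 32851 windows of the table. Of the 32 genes measured, 19 had a window, 20 windows in all, with a median GC content of 56.8%. The Hox and Pbx core lay in the windows of Hoxa2 and Hoxb8, and in 7.68% of all windows. The Cdx core lay in those of Hoxa7, Hoxb8, Hoxd3 and Hoxd4, and in 10.8% of all windows. The palindrome bound by the glucocorticoid receptor and the direct repeat bound by retinoic acid receptors were searched on both strands too, and were found in no Hox window and in 0.00913% of all windows each. The shorter AGAACA core of that palindrome lay in 2 of the 20 Hox windows, those of Hoxa9 and Hoxa11, and in 16.1% of all windows. The CCAAT box lay in 13 of the 20 Hox windows and in 33.8% of all windows. A match is a description of letters and no evidence of binding.

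Across the whole series, the 75th percentile of signal ran between 298 and 1035 units, with AdipoKO_BAT samples 1 and 2 the dimmest at 298 and 320, and 66.7% to 83.6% of probes were well above background. Nr3c1 was lower in the knockouts of both depots, at 1.45 ± 0.21 in AdipoKO_BAT against 2.49 ± 0.16 in CTL_BAT, and at 1.53 ± 0.15 in AdipoKO_WAT against 2.19 ± 0.28 in CTL_WAT (log2 level, mean ± SD). Each difference gave p = 0.0286 by a two-sided exact permutation test, the smallest these group sizes allow for n = 3 against 4 and n = 4 against 4 alike. Arrays AdipoKO_WAT 1 and 2 differed by no more than repeated spots do (SD of the log2 difference 0.0830, against 0.0872 from spot noise), whereas the next closest pair of arrays differed by 0.172, so they were averaged to 1 sample and AdipoKO_WAT has n = 3. The labels do not say whether these 2 arrays hold 1 RNA hybridised more than once. All 10 brown adipocyte markers were higher in BAT than in WAT in both genotypes, and transcripts of intestinal epithelium were high in CTL_WAT 1 and 4. In bulk tissue, fewer cells of a type and less RNA per cell cannot be told apart.

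**Figure D1:**
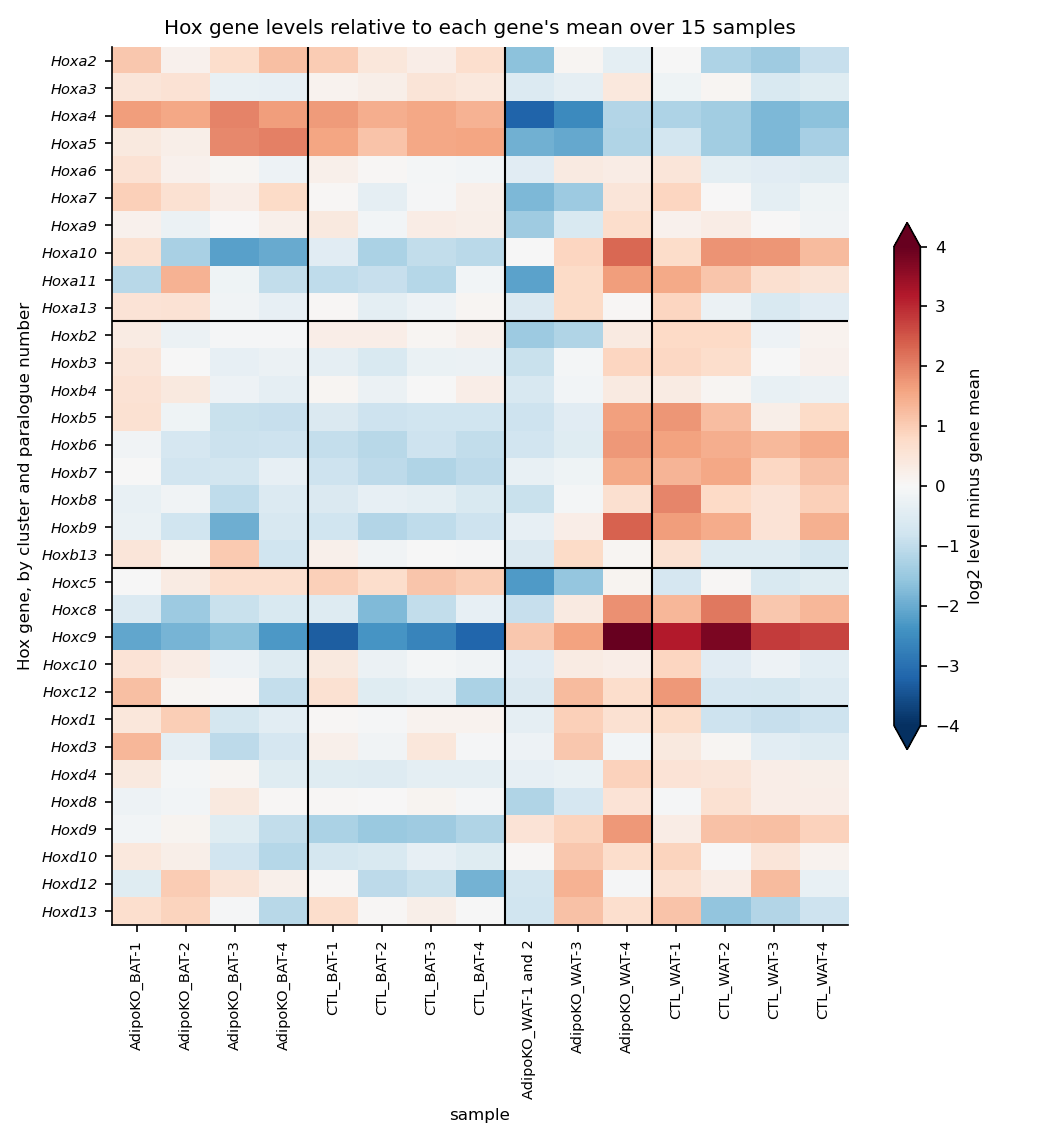
Heat map of the 32 measured Hox genes (rows, by cluster and paralogue number) in 15 samples (columns, by group), coloured by log2 level minus the gene's mean over the samples, with the scale ending at 4 in each direction. Hoxa4 and Hoxa5 stand out as high in BAT and Hoxc9 as high in WAT, and Hoxb5 to Hoxb9, Hoxc8 and Hoxc9 are lower in the first 2 AdipoKO_WAT columns than in AdipoKO_WAT 4.

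Hoxa2, Hoxa4, Hoxa5 and Hoxc5 were higher in brown than in white fat of both genotypes, and Hoxa10, Hoxb9, Hoxc9 and Hoxd9 were lower. Of these, Hoxa10 passed the filter through WAT alone, so its direction is a description only. In knockout mice 9 of the 32 genes differed between the depots (limma, adjusted p under 0.05, adjusted over all features tested): 5 were higher in BAT and 4 lower. Over all features tested, 16.6% were called higher and 14% lower. The split depended on single samples. Without AdipoKO_WAT 1 and 2 it was 2 higher and 5 lower, where 10.9% of all features were called higher and 7.9% lower. Without AdipoKO_WAT 4 it was 8 higher and 2 lower, where 23.8% were called higher and 21.9% lower. In control mice 15 of the 32 differed, 4 higher and 11 lower in BAT, where 19.1% of all features were called higher and 14.3% lower. The median difference of the 32 genes was -0.07 in knockouts (-0.39 without AdipoKO_WAT 1 and 2, 0.08 without AdipoKO_WAT 3 and 0.10 without AdipoKO_WAT 4), against -0.09 over all features with all samples, and -0.20 in controls, against 0.11 over all features. Markers of other cells differed between the depots too. Of 9 fibroblast and adipose progenitor markers, 0 were lower and 1 higher in BAT of knockouts (median difference 0.20), and 7 were lower and 0 higher in BAT of controls (median -1.58). Of 8 B cell markers, 6 were lower in BAT of knockouts and 6 in BAT of controls (medians -4.51 and -3.56), and of 8 T cell markers 7 and 3. Of 10 intestinal markers, 0 were lower in BAT of knockouts and 6 in BAT of controls, and of 7 mesothelial markers 4 and 7. All 10 skeletal muscle markers were higher in BAT of both genotypes. The part of these cells in the Hox counts was not tested.

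**Figure D2:**
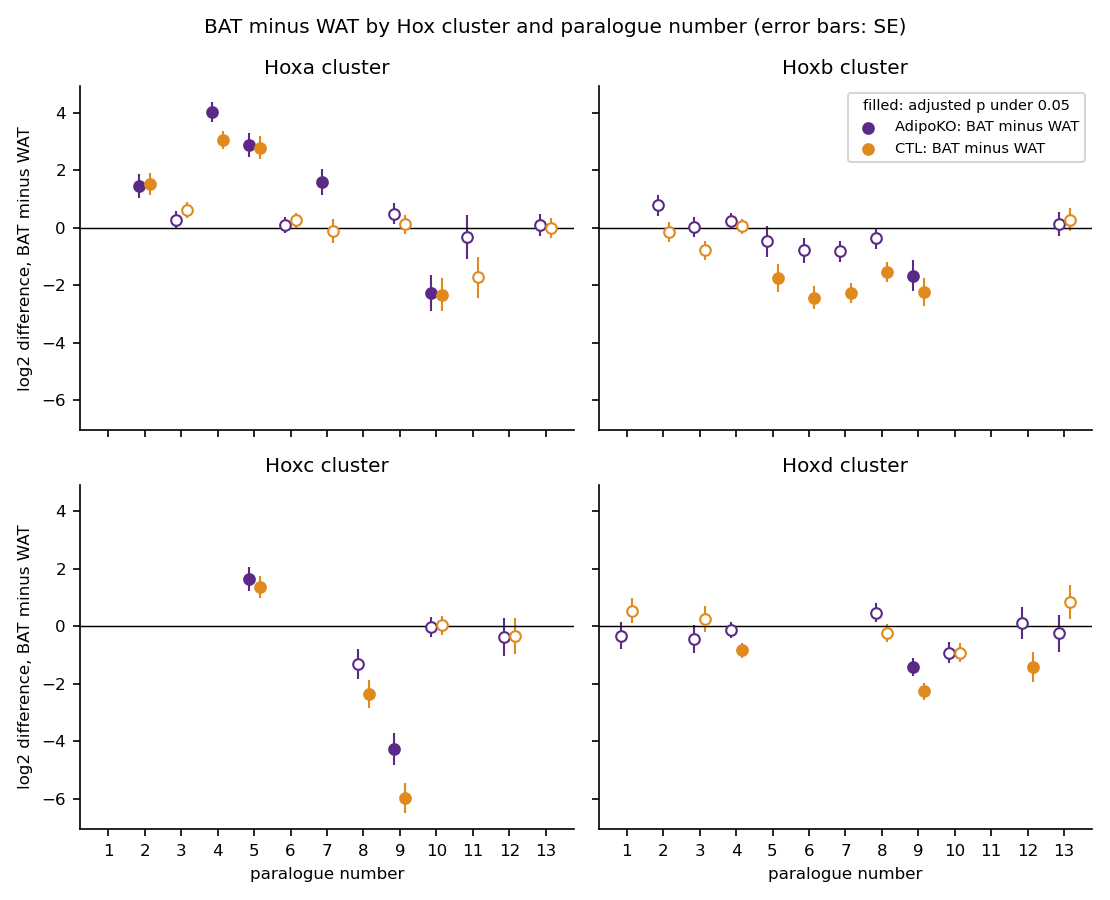
BAT minus WAT log2 difference (vertical axis, error bars SE) by paralogue number (horizontal axis) in each Hox cluster, for AdipoKO (n = 4 BAT, 3 WAT) and CTL (n = 4 and 4), with filled points where the adjusted p was under 0.05. Values run from above 0 at paralogues 2 to 5 of the Hoxa cluster to below 0 at Hoxa10 and Hoxc9, and the Hoxb5 to Hoxb9 block is below 0 in CTL.

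Split by paralogue group, and with the brightest probe standing for each gene, Hoxa2 was the 1 of 6 anterior genes called in either genotype. Of 13 central genes, 4 were called higher in knockouts (Hoxa4, Hoxa5, Hoxa7 and Hoxc5) and none lower, and of 13 posterior genes 4 were called lower (Hoxa10, Hoxb9, Hoxc9 and Hoxd9) and none higher. Over all features, 16.6% were called higher and 14% lower in knockouts, and 19.1% and 14.3% in controls. Without AdipoKO_WAT 1 and 2, the knockout calls were 2 higher and 1 lower for central and 0 and 4 for posterior genes. Without AdipoKO_WAT 3 they were 3 and 0, and 0 and 4. Without AdipoKO_WAT 4 they were 5 and 0, and 1 and 2. Those 3 fits called 10.9%, 11.5% and 23.8% of all features higher and 7.9%, 6.46% and 21.9% lower. In controls 3 of the central genes were called higher (Hoxa4, Hoxa5 and Hoxc5) and 6 lower (Hoxb5, Hoxb6, Hoxb7, Hoxb8, Hoxc8 and Hoxd4). Of the posterior genes none was called higher in controls and 5 lower: Hoxa10, Hoxb9, Hoxc9, Hoxd9 and Hoxd12. Of the posterior genes, Hoxa10, Hoxc12 and Hoxd12 passed the filter through WAT alone, where they were bright, so the posterior counts give no support to a direction.

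Hoxa2, which specifies hindbrain and second pharyngeal arch identity in the mouse embryo, was higher in BAT. Its level was -1.49, -2.39, -1.87 and -1.38 in AdipoKO_BAT, against -4.20, -2.49 and -2.97 in AdipoKO_WAT. It was -1.57, -2.11, -2.30 and -1.90 in CTL_BAT, against -2.59, -3.81, -3.99 and -3.50 in CTL_WAT. The groups did not overlap in either genotype, although AdipoKO_WAT 3 and CTL_WAT 1 came close to the lowest BAT samples. The difference was 1.44 ± 0.41 in knockouts (limma adjusted p = 0.0181) and 1.50 ± 0.38 in controls (limma adjusted p = 0.00816), as log2 ± SE. Without AdipoKO_WAT 1 and 2 the knockout call ended, at 0.95, limma adjusted p = 0.108. Normexp background correction models each spot's background and here added an offset of 50 units before the log was taken. An added constant shrinks log2 differences, most for dim probes. With this correction both calls ended, at 0.72, limma adjusted p = 0.342 in knockouts and 0.61, limma adjusted p = 0.334 in controls.

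Hoxa4, an identity gene of the neck vertebrae, had the largest rise in BAT among the Hox genes. Its level was 0.90, 0.77, 1.20 and 0.89 in AdipoKO_BAT, against -3.99, -3.33 and -1.93 in AdipoKO_WAT. It was 0.94, 0.68, 0.79 and 0.63 in CTL_BAT, against -1.998, -2.18, -2.57 and -2.41 in CTL_WAT. All BAT samples lay between 0.63 and 1.20, and the highest WAT sample was at -1.93. The differences were 4.02 ± 0.35 (16.3-fold; limma adjusted p = 4.80e-06) in knockouts and 3.05 ± 0.33 (8.27-fold; limma adjusted p = 1.28e-05) in controls. A second probe of the gene was also higher in BAT, by 1.08 in knockouts and 1.85 in controls, and its KO minus CTL difference in WAT was positive (0.51) where that of the probe used was negative.

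Hoxa5, which patterns the cervicothoracic region and the lung and is expressed in adult fat, behaved likewise. Its level was -0.59, -0.76, 0.92 and 1.03 in AdipoKO_BAT, against -2.91, -3.04 and -2.20 in AdipoKO_WAT. It was 0.60, 0.15, 0.57 and 0.60 in CTL_BAT, against -1.73, -2.36, -2.78 and -2.31 in CTL_WAT. The depots did not overlap, but AdipoKO_BAT split in pairs: samples 1 and 2, the dimmest arrays, were below 0 and samples 3 and 4 near 1. The difference was 2.86 ± 0.43 in knockouts (limma adjusted p = 2.73e-04) and 2.78 ± 0.39 in controls (limma adjusted p = 1.24e-04).

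Hoxc5, another cervicothoracic gene, was also higher in BAT in both genotypes. Its level was -2.89, -2.55, -2.21 and -2.19 in AdipoKO_BAT, against -5.14, -4.42 and -2.77 in AdipoKO_WAT, and -1.91, -2.18, -1.76 and -1.90 in CTL_BAT, against -3.54, -2.83, -3.49 and -3.35 in CTL_WAT. In controls the groups did not overlap, and in knockouts AdipoKO_WAT 4 lay within the BAT range. The differences were 1.65 ± 0.42 (limma adjusted p = 0.009) in knockouts and 1.37 ± 0.38 (limma adjusted p = 0.0141) in controls. Leaving out AdipoKO_WAT 1 and 2 ended the knockout call, at 1.14, limma adjusted p = 0.0541. Leaving out CTL_WAT 1 and 4 ended the call in controls, with a difference of 1.22 ± 0.50, limma adjusted p = 0.108. Both calls ended with normexp correction, at 0.68, limma adjusted p = 0.401 in knockouts and 0.62, limma adjusted p = 0.338 in controls.

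Hoxa7, a trunk gene also expressed in blood progenitors, was called in knockouts only. Its level was 3.33, 2.95, 2.63 and 3.12 in AdipoKO_BAT, against 0.56, 0.91 and 2.84 in AdipoKO_WAT. In controls it was 2.40, 2.01, 2.30 and 2.57 in BAT, against 3.22, 2.38, 1.97 and 2.19 in WAT. The knockout difference, 1.57 ± 0.45 (limma adjusted p = 0.0172), rested on AdipoKO_WAT 1 and 2 and AdipoKO_WAT 3, since AdipoKO_WAT 4 lay among the BAT values. It was no longer called without AdipoKO_WAT 1 and 2 (1.13, limma adjusted p = 0.102) or without AdipoKO_WAT 3 (1.31, limma adjusted p = 0.0924), and with all 3 of those arrays left out the difference was 0.17. The call also ended without AdipoKO_BAT 1 and 2, and in a fit of only the 2 knockout groups. The control difference was -0.12 ± 0.42, and the genotype by depot difference, 1.69, missed the threshold (limma adjusted p = 0.406).

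**Figure D3:**
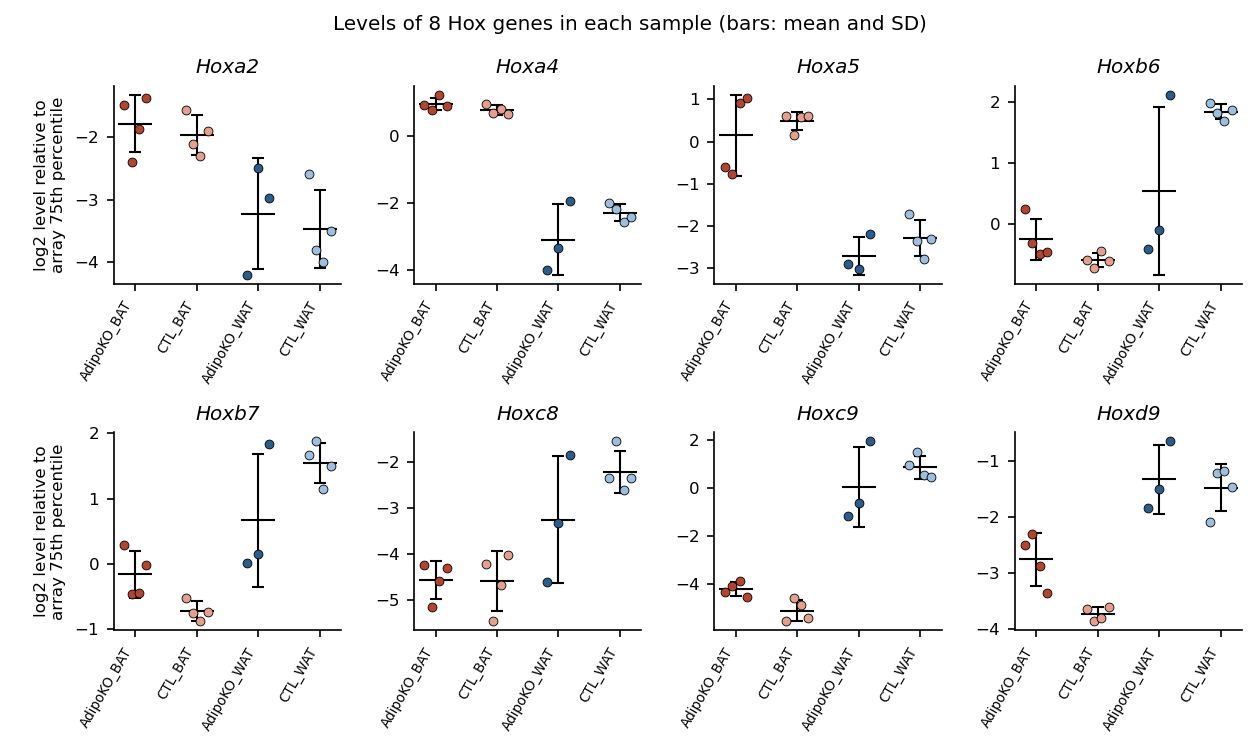
Log2 level (vertical axis, relative to each array's 75th percentile) of 8 Hox genes in every sample of the 4 groups, with bars for mean and SD. Hoxa4 and Hoxa5 separate the depots with BAT higher, Hoxc9 and Hoxd9 separate them with BAT lower, and in AdipoKO_WAT the 3 samples of Hoxb6, Hoxb7, Hoxc8 and Hoxc9 spread over more than 1 log2 unit.

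Hoxc9, which marks white adipocytes and their progenitors in the mouse and specifies thoracic motor neurons, had the largest difference of all Hox genes. Its level was -4.33, -4.10, -3.88 and -4.56 in AdipoKO_BAT, against -1.16, -0.63 and 1.94 in AdipoKO_WAT. It was -5.55, -4.60, -4.90 and -5.43 in CTL_BAT, against 0.94, 1.51, 0.55 and 0.46 in CTL_WAT. Every BAT sample was below every WAT sample in both genotypes. The differences were -4.26 ± 0.56 (19.2-fold lower in BAT; limma adjusted p = 1.12e-04) in knockouts and -5.98 ± 0.52 (63.3-fold lower; limma adjusted p = 2.53e-06) in controls. In BAT the probe was well above background on 3 of 4 AdipoKO and 2 of 4 CTL arrays, so the BAT levels are close to the limit of detection.

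Hoxd9 and Hoxb9, which act with Hoxa9 and Hoxc9 in thoracic patterning and mammary gland growth in the mouse, were also lower in BAT in both genotypes. Hoxd9 was -2.49, -2.29, -2.86 and -3.36 in AdipoKO_BAT, against -1.83, -1.49 and -0.65 in AdipoKO_WAT, and -3.64, -3.86, -3.81 and -3.60 in CTL_BAT, against -2.08, -1.21, -1.17 and -1.45 in CTL_WAT. Its differences were -1.43 ± 0.32 (limma adjusted p = 0.00443) and -2.25 ± 0.29 (limma adjusted p = 6.44e-05), with no overlap of depots. With normexp correction the knockout call ended (-0.73, limma adjusted p = 0.184). That call also ended in a fit of only the 2 knockout groups. A second Hoxd9 probe differed by -1.41 in knockouts and -1.55 in controls. Hoxb9 was -3.93, -4.45, -5.61 and -4.32 in AdipoKO_BAT, against -4.01, -3.39 and -1.31 in AdipoKO_WAT, and -4.46, -4.83, -4.69 and -4.50 in CTL_BAT, against -1.98, -2.19, -3.11 and -2.24 in CTL_WAT. Its differences were -1.68 ± 0.54 (limma adjusted p = 0.0303) and -2.24 ± 0.50 (limma adjusted p = 0.00347). In knockouts AdipoKO_WAT 1 and 2 overlapped BAT, and the knockout call ended without AdipoKO_WAT 4 (-0.88, limma adjusted p = 0.106), without AdipoKO_BAT 2 (-1.72, limma adjusted p = 0.052) and without AdipoKO_BAT 3 (-1.33, limma adjusted p = 0.0876). It also ended with the slide as a block (-1.66, limma adjusted p = 0.0652) and with quantile normalization (-1.45, limma adjusted p = 0.0546). With normexp correction the Hoxb9 call ended in knockouts (-0.56, limma adjusted p = 0.603) and in controls (-1.15, limma adjusted p = 0.0609). Hoxa9 did not pass in either genotype, with differences of 0.49 ± 0.36 in knockouts and 0.12 ± 0.34 in controls.

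Hoxa10, which acts in the lumbar region and uterus, was lower in BAT. It was well above background on 1 of 4 AdipoKO_BAT and 0 of 4 CTL_BAT arrays, and on all WAT arrays. The measured levels were -3.82, -5.74, -6.61 and -6.44 in AdipoKO_BAT, against -4.46, -3.59 and -2.13 in AdipoKO_WAT, and -4.90, -5.70, -5.42 and -5.52 in CTL_BAT, against -3.69, -2.65, -2.68 and -3.18 in CTL_WAT. In controls the probe was at least 3.54-fold dimmer in BAT, taking the dim group at the lowest signal well above background (limma adjusted p = 0.0068). In knockouts, where 3 of 4 BAT arrays gave no signal well above background, the measured difference was -2.26 ± 0.62 (limma adjusted p = 0.0147), and the groups overlapped because AdipoKO_BAT 1 lay above AdipoKO_WAT 1 and 2. The knockout call ended without AdipoKO_WAT 4 (-1.63, limma adjusted p = 0.0517). With normexp correction the call ended in knockouts (-0.38, limma adjusted p = 0.931) and in controls (-0.96, limma adjusted p = 0.18).

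Hoxb5, Hoxb6, Hoxb7, Hoxb8 and Hoxc8, central genes that pattern the trunk, did not pass in knockouts and were lower in BAT of control mice. Hoxb6 was 0.24, -0.31, -0.49 and -0.46 in AdipoKO_BAT, against -0.40, -0.10 and 2.11 in AdipoKO_WAT, so that 1 WAT sample was high and the other 2 lay at BAT levels. In controls it was -0.60, -0.73, -0.44 and -0.61 in CTL_BAT, against 1.98, 1.82, 1.68 and 1.87 in CTL_WAT, a difference of -2.43 ± 0.41 (5.39-fold; limma adjusted p = 4.61e-04). Hoxb7 was 0.29, -0.45, -0.44 and -0.01 in AdipoKO_BAT, against 0.02, 0.15 and 1.83 in AdipoKO_WAT. In controls it was -0.52, -0.74, -0.88 and -0.74 in CTL_BAT, against 1.67, 1.87, 1.14 and 1.49 in CTL_WAT (-2.26 ± 0.34; limma adjusted p = 1.99e-04). Again AdipoKO_WAT 4 stood with the control WAT samples and the others did not.

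Hoxb5, also known from the enteric nervous system, was -0.40, -1.17, -1.89 and -1.92 in AdipoKO_BAT, against -1.82, -1.44 and 0.65 in AdipoKO_WAT. In controls it was -1.57, -1.82, -1.81 and -1.80 in BAT, against 0.78, 0.24, -0.77 and -0.24 in WAT (-1.75 ± 0.50; limma adjusted p = 0.0149). Without CTL_WAT 1 and 4 that call ended (-1.49 ± 0.62, limma adjusted p = 0.113). Hoxb8, known for its part in microglia and grooming behaviour, was -4.09, -3.94, -4.83 and -4.35 in AdipoKO_BAT, against -4.70, -3.89 and -3.18 in AdipoKO_WAT, which overlapped. In controls it was -4.40, -4.13, -4.19 and -4.43 in BAT, against -1.87, -3.02, -3.27 and -2.87 in WAT (-1.53 ± 0.34; limma adjusted p = 0.00342). A second Hoxb8 probe, too dim to pass the filter, differed between depots by -0.055 in controls and 0.017 in knockouts. Hoxc8, reported to restrain the brown adipocyte program, was -4.23, -5.14, -4.58 and -4.31 in AdipoKO_BAT, against -4.60, -3.33 and -1.85 in AdipoKO_WAT (-1.31 ± 0.53; limma adjusted p = 0.0774). In controls it was -4.21, -5.46, -4.66 and -4.01 in BAT, against -2.35, -1.57, -2.62 and -2.36 in WAT (-2.36 ± 0.49; limma adjusted p = 0.00211). Only 1 of 4 AdipoKO_BAT arrays showed its probe well above background, against 4 of 4 AdipoKO_WAT arrays. With normexp correction the control calls of Hoxb8 (-0.97, limma adjusted p = 0.0915) and Hoxc8 (-1.07, limma adjusted p = 0.0637) ended.

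Of the Hoxd cluster, Hoxd4 and Hoxd12 were the other control calls. Hoxd4, a hindbrain and neck gene, was 0.59, 0.12, 0.28 and -0.29 in AdipoKO_BAT, against -0.14, -0.08 and 1.12 in AdipoKO_WAT, and -0.28, -0.32, -0.19 and -0.21 in CTL_BAT, against 0.75, 0.67, 0.47 and 0.44 in CTL_WAT (-0.83 ± 0.26; limma adjusted p = 0.025). Hoxd12, a limb gene, was -5.29, -3.81, -4.31 and -4.61 in AdipoKO_BAT, against -5.56, -3.43 and -4.86 in AdipoKO_WAT (0.11 ± 0.55), and -4.76, -5.86, -5.73 and -6.71 in CTL_BAT, against -4.20, -4.54, -3.55 and -5.11 in CTL_WAT (-1.42 ± 0.51; limma adjusted p = 0.0459). Its groups overlapped, and its probe was well above background on 1 of 4 CTL_BAT arrays. Each of these 2 calls ended without CTL_WAT 1 and 4, at -0.82 ± 0.34, limma adjusted p = 0.113 for Hoxd4 and -1.72 ± 0.63, limma adjusted p = 0.0751 for Hoxd12. With normexp correction the Hoxd12 call ended (-0.50, limma adjusted p = 0.629). The Hoxd4 call also ended without CTL_BAT 1, CTL_BAT 2, CTL_WAT 1 or CTL_WAT 2 taken singly, with differences between -0.82 and -0.77 (limma adjusted p between 0.0524 and 0.0594). The Hoxd12 call ended without any 1 of AdipoKO_BAT 3 and 4, CTL_BAT 2 to 4 or CTL_WAT 1 to 3, with differences between -1.48 and -1.10 (limma adjusted p between 0.0568 and 0.139).

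The remaining genes showed no call between the depots in either genotype. Among anterior genes, differences in knockouts ran between -0.43 for Hoxd3 and 0.77 for Hoxb2, and in controls between -0.79 for Hoxb3 and 0.62 for Hoxa3. A second, dimmer Hoxa3 probe was higher in BAT by 1.40 in knockouts and 2.14 in controls, and was not tested on its own. That probe was well above background on all BAT arrays, 3 of 4 AdipoKO_WAT and 2 of 4 CTL_WAT arrays. Among central genes, Hoxa6, Hoxb4 and Hoxd8 differed by 0.08, 0.23 and 0.47 in knockouts and by 0.25, 0.05 and -0.24 in controls. The posterior genes Hoxa13, Hoxb13, Hoxc10, Hoxc12 and Hoxd13 differed by between -0.34 (Hoxc12) and 0.85 (Hoxd13) in controls. Hoxa11 and Hoxd10, of limb and kidney patterning, differed by -1.73 and -0.91 between BAT and WAT of controls without passing (limma adjusted p = 0.0751 and limma adjusted p = 0.0555). Hoxc12 was well above background on 1 of 4 arrays of each BAT group, and Hoxd13 on 2 of 4 AdipoKO_WAT and 1 of 4 CTL_WAT arrays.

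The same call was made in both genotypes for 8 genes: Hoxa2, Hoxa4, Hoxa5 and Hoxc5 were higher in BAT in both, and Hoxa10, Hoxb9, Hoxc9 and Hoxd9 lower in both. Hoxa10 passed the filter through WAT alone, where it was bright, so its 2 calls give no support to a direction. A fit of only the 2 knockout groups ended the knockout call of Hoxa2, Hoxa10, Hoxb9, Hoxc5 and Hoxd9. A further 7 genes were called lower in BAT in controls only, and Hoxa7 was called higher in knockouts only. Of the 7, Hoxd12 too passed the filter through WAT alone. The genotype by depot test called 0 of the 32 Hox genes, with an unadjusted p under 0.05 for 5 of them, where 0.00398% of all features were called higher and 0% lower and 2618 of 25107 had an unadjusted p under 0.05. The 5 were Hoxa7, Hoxb6, Hoxb7, Hoxb8 and Hoxc9, with genotype by depot differences of 1.69, 1.64, 1.44, 1.15 and 1.72. A difference between the genotypes in the depot pattern was therefore not shown for any of the 8 genes called in 1 genotype only.

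Knockout and control differed in no Hox gene by the test in either depot with all samples in the fit. In WAT 0 of 32 genes passed, 7 had an unadjusted p under 0.05 by limma, and the groups overlapped for all 32, where 0.0199% of all features were called higher, 0.0398% lower, and 4501 of 25107 had an unadjusted p under 0.05. Groups did not overlap for 6.47% of all features with AdipoKO_WAT higher and 1.23% with it lower. In BAT 0 of 32 passed and 2 had an unadjusted p under 0.05, where 0.00797% of all features were called higher and 0.00797% lower and 3297 of 25107 had such a p. The smallest adjusted p was 0.219 (Hoxb8) in WAT and 0.212 (Hoxd9) in BAT.

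**Figure D4:**
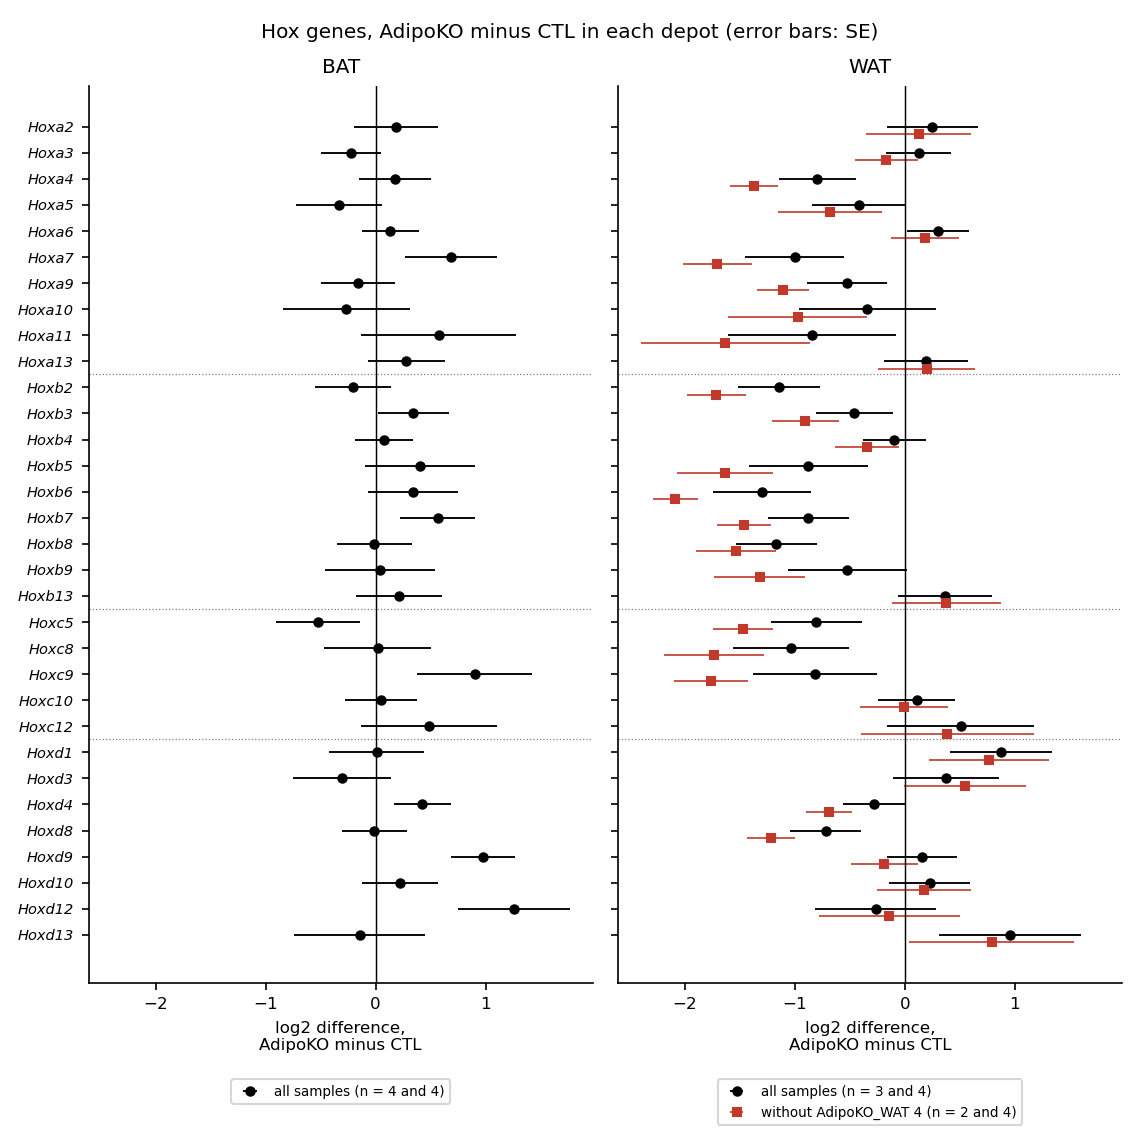
AdipoKO minus CTL log2 difference (horizontal axis, error bars SE) of each Hox gene in BAT and in WAT, with dotted lines between clusters. In BAT the points lie within 1.26 of 0. In WAT the red squares, fitted without AdipoKO_WAT 4, lie left of the points from all samples for all 13 central genes.

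The AdipoKO_BAT arrays fell in 2 pairs over the probes above 500 units on every array. The SD of the log2 difference was 0.239 between samples 1 and 2 and 0.245 between 3 and 4. Across those pairs it was 0.410 to 0.575, and between AdipoKO_BAT 4 and CTL_BAT 4 it was 0.266. In BAT, 22 of 32 genes had positive differences and 10 negative, with a median of 0.16, against 0.10 over all features. Groups did not overlap for 4 genes that were higher in AdipoKO_BAT (Hoxa7, Hoxb7, Hoxc9 and Hoxd9) and for Hoxc5, which was lower, where 9.35% of all features were higher and 8.61% lower without overlap. Hoxd9 was -2.49, -2.29, -2.86 and -3.36 in AdipoKO_BAT, against -3.64, -3.86, -3.81 and -3.60 in CTL_BAT, a difference of 0.98 ± 0.29 (unadjusted p = 0.00523 by limma, adjusted p = 0.212). The second Hoxd9 probe differed by 0.40 in this comparison. Hoxd12 was -5.29, -3.81, -4.31 and -4.61 in AdipoKO_BAT, against -4.76, -5.86, -5.73 and -6.71 in CTL_BAT, a difference of 1.26 ± 0.51 (limma adjusted p = 0.318). The 2 dimmest arrays, AdipoKO_BAT 1 and 2, held the highest 2 values of Hoxd9 in BAT, and without them its difference was 0.62. Skeletal muscle markers, all 10 measured, had a list level of 2.56, 5.22, 5.05 and 2.55 in AdipoKO_BAT, against 2.43, 3.02, 2.30 and -1.14 in CTL_BAT (median log2 deviation from each gene's mean), and their part in these values was not tested.

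In WAT the central genes leaned lower in the knockout: 12 of 13 had negative differences, with a median of -0.80, against 0.24 over all features. That median was -0.26 with normexp correction, -0.34 without AdipoKO_WAT 1 and 2, and -1.46 without AdipoKO_WAT 4. For anterior genes the median was 0.19 and for posterior genes 0.11. By slide, with each AdipoKO_WAT sample set against the CTL_WAT sample of the same slide, central differences were negative for 13 of 13 on slide 1, 13 of 13 on slide 2 and 12 of 13 on slide 4, and positive for 13 of 13 on slide 3, which carried AdipoKO_WAT 4. Slides 2 and 4 carried the near-identical arrays AdipoKO_WAT 2 and 1. Each entered here with its own value, although the fit counts them as 1 sample. The direction was thus carried by AdipoKO_WAT 1 and 2 and AdipoKO_WAT 3, while AdipoKO_WAT 4 was above CTL_WAT 3 of the same slide for all 13. Hoxb6 was -0.40, -0.10 and 2.11 in AdipoKO_WAT, against 1.98, 1.82, 1.68 and 1.87 in CTL_WAT (-1.30 ± 0.44; limma adjusted p = 0.234). Hoxb8 was -4.70, -3.89 and -3.18 in AdipoKO_WAT, against -1.87, -3.02, -3.27 and -2.87 in CTL_WAT (-1.17 ± 0.37; limma adjusted p = 0.219). Hoxb2, a hindbrain gene, was -1.36, -1.11 and 0.46 in AdipoKO_WAT, against 0.89, 0.89, -0.10 and 0.23 in CTL_WAT (-1.15 ± 0.37; limma adjusted p = 0.229).

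Without AdipoKO_WAT 4, which leaves 2 knockout WAT samples, 15 of 32 Hox genes were called lower in AdipoKO_WAT and none higher, where 20.9% of all features were called higher and 15.9% lower. They were 10 of 13 central genes (Hoxa4, Hoxa7, Hoxb5, Hoxb6, Hoxb7, Hoxb8, Hoxc5, Hoxc8, Hoxd4 and Hoxd8), the anterior genes Hoxb2 and Hoxb3, and the posterior genes Hoxa9, Hoxb9 and Hoxc9. Differences in that fit were -2.09 ± 0.21 (limma adjusted p = 1.14e-04) for Hoxb6, -1.76 ± 0.34 (limma adjusted p = 0.00247) for Hoxc9 and -0.69 ± 0.21 (limma adjusted p = 0.0204) for Hoxd4. The genotype by depot test then called 11 of 32 higher, where 10.3% of all features were called higher. Without AdipoKO_WAT 1 and 2, or without AdipoKO_WAT 3, 0 of 32 were called in WAT. With AdipoKO_WAT 1 to 3 left out, which leaves 1 knockout WAT sample and no spread of its own, 12 of 13 central differences were positive, with a median of 0.37.

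**Figure D5:**
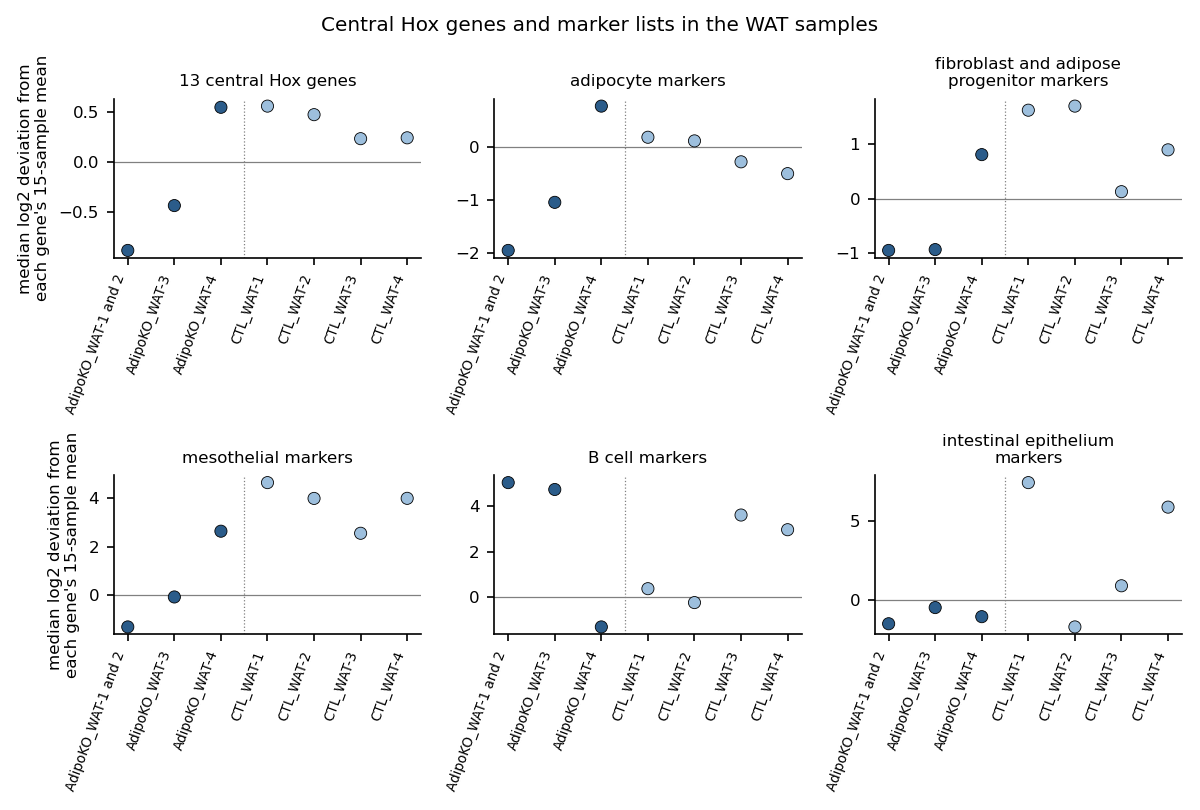
Median log2 deviation from each gene's mean over 15 samples (vertical axis) in the 7 WAT samples (horizontal axis; AdipoKO dark, CTL light) for the 13 central Hox genes and 5 marker lists. AdipoKO_WAT 1 and 2 and AdipoKO_WAT 3 are low for the central Hox genes and the adipocyte, fibroblast and mesothelial lists and high for the B cell list, while AdipoKO_WAT 4 is not.

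Markers of other cells moved with this pattern. The level of the 13 central Hox genes was -0.89, -0.44 and 0.55 in AdipoKO_WAT 1 and 2, 3 and 4, against 0.56, 0.47, 0.23 and 0.24 in CTL_WAT 1 to 4 (median log2 deviation). Over the 10 adipocyte markers, all detected on every array, it was -1.96, -1.04 and 0.78 in AdipoKO_WAT, against 0.19, 0.12, -0.28 and -0.50 in CTL_WAT. Over the 9 fibroblast and adipose progenitor markers it was -0.95, -0.93 and 0.81, against 1.62, 1.70, 0.13 and 0.90 in CTL_WAT. The 8 B cell markers were at 5.05, 4.75 and -1.31 in AdipoKO_WAT, against 0.37, -0.24, 3.62 and 2.97 in CTL_WAT, so lymphocyte transcripts were high in the 2 samples with low Hox levels. The 8 T cell markers were likewise at 4.42, 4.16 and -1.22, against -0.36, -0.76, 3.29 and 2.59 in CTL_WAT. The 7 mesothelial markers were at -1.33, -0.09 and 2.64, against 4.65, 4.00, 2.55 and 4.00 in CTL_WAT. Without AdipoKO_WAT 4, 8 of 10 adipocyte, 8 of 9 fibroblast and 7 of 7 mesothelial markers were called lower and 8 of 8 B cell and 8 of 8 T cell markers higher in AdipoKO_WAT, in the fit where 20.9% of all features were called higher. Their part in the Hox values was not tested.

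Intestinal epithelium markers, all 10 measured, were at levels between -1.48 and -0.46 in AdipoKO_WAT, against 7.43, -1.68, 0.92 and 5.89 in CTL_WAT 1 to 4 (median log2 deviation). Of the 10, 3 were well above background on all 4 AdipoKO_BAT arrays and 9 on all 4 CTL_BAT arrays, and 7 on all 4 AdipoKO_WAT and 8 on all 4 CTL_WAT arrays. Without CTL_WAT 1 and 4, 11 of 32 Hox genes differed between depots in controls, 3 higher and 8 lower in BAT, each among the 15, where 12.5% of all features were called higher and 8.47% lower. Hoxb13 was -2.32 in CTL_WAT 1, against -3.65 to -3.44 in the other 3 CTL_WAT samples. Its differences did not pass in any comparison.

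Other genes with a part in body position were set beside the Hox genes. Over all features, 16.6% were called higher and 14% lower in BAT of knockouts, and 19.1% and 14.3% in controls. Of 9 TALE class cofactors, which bind DNA with Hox proteins, 1 was higher and 3 lower in BAT of controls. Meis3 and Meis1 were lower (-0.95 ± 0.19 and -1.08 ± 0.29), and Pbx2 was higher (0.44 ± 0.15). Meis3 was the 1 cofactor called in knockouts (-1.35 ± 0.21), where Meis3 averaged -2.60 ± 0.17 (SD, n = 4) in AdipoKO_BAT, against -1.25 ± 0.13 (SD, n = 3) in AdipoKO_WAT. Of 32 measured positional transcription factors, 8 were higher and 4 lower in BAT of knockouts, and 8 higher and 7 lower in controls. Zic1, an axial mesoderm factor and known brown fat marker, had a difference of 4.77 ± 0.35 in knockouts and 5.35 ± 0.32 in controls. Its probe was well above background on all BAT arrays and on 1 of 4 arrays of each WAT group, so the WAT levels are at the limit of detection. Tbx5, a forelimb and heart factor, differed by 4.82 ± 0.55 in knockouts and 4.72 ± 0.51 in controls, and was well above background on 2 of 4 AdipoKO_WAT and 3 of 4 CTL_WAT arrays. Gata6, a visceral mesoderm factor, was lower in BAT (-1.90 ± 0.26 in knockouts and -3.21 ± 0.24 in controls). Zic1 also stands in the brown adipocyte marker list, and skeletal muscle levels differed between depots as given above.

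Retinoic acid induces Hox genes during development in order along the clusters. Of 16 measured pathway genes, 5 were higher and 3 lower in BAT of knockouts, and 4 higher and 4 lower in controls. The shares over all features were 16.6% higher and 14% lower in knockouts, and 19.1% and 14.3% in controls. Aldh1a2, which makes retinoic acid, differed by -5.03 ± 0.32 in knockouts and -4.88 ± 0.29 in controls. The retinoic acid receptor Rarb differed by 2.65 ± 0.26 in knockouts and 2.55 ± 0.24 in controls. Aldh1a3 was lower in BAT (-1.39 ± 0.41 in knockouts and -3.19 ± 0.38 in controls), and Rxrg, a retinoid X receptor, was higher by 2.27 in knockouts. Mesothelial cells express Aldh1a2, and mesothelial markers differed between the depots in the same direction; their part in this value was not tested.

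Of 20 Polycomb group genes, which keep Hox genes silent, 2 were higher and 5 lower in BAT of knockouts, and 2 higher and 4 lower in controls. For comparison, 16.6% of all features were called higher and 14% lower in knockouts, and 19.1% and 14.3% in controls. Cbx6 was lower in BAT (-0.82 ± 0.24 in knockouts and -1.80 ± 0.22 in controls). In controls Bmi1 was higher (0.67 ± 0.17) and Phc3 lower (-0.60 ± 0.16), and in knockouts Phc3 (-0.55 ± 0.17) and Cbx2 (-0.68 ± 0.24) were lower. Of 8 measured Trithorax group and H3K27 demethylase genes, Men1 and Rbbp5 were higher in BAT of controls (0.61 and 0.54) and Kdm6b higher in knockouts (1.13). Of 4 measured ParaHox and Cdx genes, Cdx2, an intestinal factor, was called lower in BAT of controls, where it was not well above background on any of 4 CTL_BAT arrays and was so on 3 of 4 CTL_WAT arrays. CTL_WAT 1 and 4 held intestinal transcripts, and their part in this call was not tested. With all samples in the fit none of these lists, TALE class cofactors and positional factors included, had a call between genotypes in either depot. Without AdipoKO_WAT 4, where 20.9% of all features were called higher and 15.9% lower in AdipoKO_WAT, 8 of 20 Polycomb and 5 of 8 Trithorax group genes were called higher and none lower. In that fit 1 retinoic acid gene was higher and 5 lower, 2 cofactors were higher and 3 lower, and 7 positional factors were lower and none higher. Of the ParaHox and Cdx genes none was called.

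Genes next to the clusters were counted too. Of 12 flanking genes, 4 were higher and 1 lower in BAT of controls, where 19.1% of all features were called higher and 14.3% lower. In knockouts those shares were 16.6% and 14%. Mtx2, beside the Hoxd cluster and part of the mitochondrial outer membrane, was higher by 2.66, and Skap2 and Hibadh, beside the Hoxa cluster, by 1.15 and 1.94. Smug1, beside the Hoxc cluster, was higher by 0.58. The 1 lower gene was Snx11, beside the Hoxb cluster, which was named after its values were seen (-0.56). In knockouts Mtx2 and Hibadh were higher by 2.04 and 2.08, and Skap1 and Snx11 were lower (-3.70 ± 1.11 and -0.62 ± 0.20). Only 1 noncoding gene of the clusters passed the filter and it had no call.

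The genes most like 3 Hox genes across the samples were found by Pearson correlation over 15 samples, with Hoxc9, Hoxa4 and Hoxd9 chosen by the smallest adjusted p between depots in controls. For Hoxc9 they were Alcam, Dpysl3 and Gm8096, with r of 0.987, 0.985 and 0.985. For Hoxa4 they were Ndufs4, Ndrg2 and Mrpl48, with r of 0.993, 0.993 and 0.993. For Hoxd9 they were Ggt5, Rhbdl3 and Ankrd29, with r of 0.977, 0.968 and 0.967. The samples fall in 2 depot clusters, so the pooled r mostly measures the depot difference. Within the 8 BAT samples r was 0.640 for Alcam and Hoxc9, 0.482 for Ndufs4 and Hoxa4, and 0.916 for Ggt5 and Hoxd9. Within the 7 WAT samples it was 0.980, 0.930 and 0.872 for the same pairs. Among those samples, Hoxc9 and Hoxa4 were lowest in AdipoKO_WAT 1 and 2 and AdipoKO_WAT 3, which also had low adipocyte and high B cell markers. The part of cell composition in these r values was not tested. The samples share arrays and the scaling to the 75th percentile, and these values are a description.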

How the data were processed

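Single-colour Agilent arrays were deposited as scanner output, with intensity per spot (processed signal) made by Feature Extraction 12.0.0.7, per the file headers, and a design on build mm9. Here log2 of the deposited intensity was taken after dividing by each array's 75th percentile. Each array had 45018 spots, 1639 of them controls, giving 41174 probes. RefSeq accessions named 28223 probes as 19096 symbols. Marked spots were left out (66 probe values), and the brightest probe stood for a gene. All 4 groups (15 samples, AdipoKO_WAT 1 and 2 averaged) were fitted with limma 3.58.1 in R 4.3.3, with 11 residual and 2.65 prior degrees of freedom. Benjamini-Hochberg adjustment ran over 25107 features (16677 named genes and 8430 unnamed), with a threshold of 0.05, and the code was tested on simulated data. P-values and SEs by limma rest on 1 spread per gene, shared by all 4 groups, between samples said to be biological replicates. The number of arrays limits precision. The groups' own spreads differed: for Hoxc9 the SD was 1.66 in AdipoKO_WAT and 0.29 in AdipoKO_BAT. For Hoxb6 it was 1.37 in AdipoKO_WAT and 0.12 in CTL_WAT. For such genes the shared spread understates that of AdipoKO_WAT and overstates that of tighter groups.

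The members and lists were chosen with earlier results of these data known. All called Hox genes, and from other lists up to 4 called genes with the smallest adjusted p per comparison, are named. Alternatives were other background, scaling, filter, probe and block choices and left-out samples. The deposited value table was not used, and 1 matched Hox gene and some genes of the other lists are not reported here.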

Additional observations from a re-analysis of the deposited data

Results flagged for a closer look

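In 6 of 96 sets of 4 samples, 1 sample lay far from the other 3 for a Hox gene. Chance flags about 1 set in 20. Hoxa5 was 0.15 in CTL_BAT 2, against 0.57 to 0.60 in the other CTL_BAT samples. Hoxb5 was -1.57 in CTL_BAT 1, against -1.82 to -1.80 in the others. The remaining 4 were CTL_WAT 1: Hoxa6 at -1.48 against -2.48 to -2.36, Hoxb13 at -2.32 against -3.65 to -3.44, Hoxc12 at -2.70 against -5.13 to -4.98, and Hoxd1 at -3.57 against -5.24 to -5.14 in the other CTL_WAT samples. CTL_WAT 1 also had the highest intestinal marker level of all WAT samples, 7.43 (median log2 deviation). CTL_WAT 4, with the next highest at 5.89, lay with CTL_WAT 2 and 3 for these 4 genes. Array CTL_WAT 1 had the lowest 75th percentile of signal in that group, 725 units. The part of intestinal transcripts or of array signal in these Hox values was not tested. All Hox values are log2 levels.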

How the results depend on the processing

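With normexp background correction, 4 Hox genes (3 higher and 1 lower in BAT) differed between depots in knockouts, in place of 9, and 8 (2 higher and 6 lower) in controls, in place of 15. That setting adds an offset of 50 units, which shrinks log2 differences of dim probes whatever the background. The calls of Hoxa2, Hoxa10, Hoxb9 and Hoxc5 ended in both genotypes, of Hoxd9 in knockouts, and of Hoxb8, Hoxc8 and Hoxd12 in controls. Fitting only the 2 groups compared left 3 in knockouts (2 higher and 1 lower). In that fit the knockout calls of Hoxa2, Hoxa7, Hoxa10, Hoxb9, Hoxc5 and Hoxd9 ended. The share of all features called in these fits is not reported here, and the cause of the lower counts was not tested. Leaving out 1 sample at a time gave 7 to 10 calls between depots in knockouts, 13 to 18 in controls, 0 to 15 between genotypes in WAT, 0 in BAT and 0 to 11 for genotype by depot. The 15 and the 11 came from leaving out AdipoKO_WAT 4. No difference of a called gene changed sign. Hoxa4, Hoxa5 and Hoxc9 stayed called in both genotypes under every alternative run, 28 in knockouts and 27 in controls. Leaving out AdipoKO_WAT 1 to 3 was chosen after seeing the data and gave 10 calls between depots in knockouts, 6 of them shared with the 9. That arm then holds 1 sample, which is assumed to vary like the other groups.

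Replicate numbers did not pair the samples: 8 of 24 same-numbered pairs had correlated deviations over 0.1, with a median of 0.0057. With the replicate block the counts were 9, 15, 0, 0 and 0, the same as without it. With the slide as a block, 8 differed between depots in knockouts, without Hoxb9, and 16 in controls. Genes near background, such as Hoxa10 and Hoxc9 in BAT, have levels limited by detection. The fit of only the groups compared could not be run for genotype by depot.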
